A study of Mus musculus with 24 samples.

Results

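The 8 C57Bl6 livers of the series, the arrays titled C57Bl6_1 to C57Bl6_8, were described on their own: the level of each gene, the spread between animals and the genes that varied together. They are 8 of 24 arrays and were chosen by genotype label alone. The study set C57Bl6 mice beside lines that carry SREBP-1a transgenes in liver; those lines are not compared here. The C57Bl6 mice carried no transgene, were male litter mates on standard chow and were killed at 24 weeks of age at the same hour of the morning. Each liver gave 1 RNA sample on 1 Affymetrix Mouse Gene ST array, so differences between animals and differences between array preparations cannot be told apart. No litter, cage, hybridisation or scan date is given in the sources used here.

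Adult liver consists mainly of hepatocytes, which secrete most plasma proteins, make lipids and bile acids and clear foreign compounds. Hepatocytes near the portal vein favour gluconeogenesis and urea synthesis, while those around the central vein favour glutamine synthesis and xenobiotic metabolism. Kupffer cells, sinusoidal endothelium, stellate cells and bile duct cells make up most of the remainder. Several hepatic programmes are known to follow feeding, time of day, growth hormone pulses and inflammation, and are known to differ between mice of the same strain. In whole tissue, fewer cells of a type and less RNA per cell cannot be told apart.

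Values are log2 signals computed by robust multi-array average (RMA), so a difference of 1 is a doubling. A gene is given by the probe set with the highest mean, and its spread is the standard deviation (SD) over the 8 arrays. An order of levels is an order of array signal, since probe sets differ in affinity and probe length coverage, and is not an order of transcript number. The 35556 probe sets had no missing value, and 21789 of them, with 1 gene symbol, covered 19938 genes. Array medians ran from 5.55 to 5.65, and levels of any 2 arrays correlated at 0.976 to 0.99 over all probe sets. No array stood apart in these measures.

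The brightest signals belonged to secreted plasma proteins. Alb, serum albumin, ranked 3rd among genes with a lowest value of 14.25, a median of 14.3 and a highest of 14.37. Apoe, an apolipoprotein of remnant lipoproteins, ran from 14.17 to 14.42, the iron carrier Trf from 13.96 to 14.17 and the thyroxine carrier Ttr from 13.88 to 14.09. The signals of these carriers differed little between arrays. They lay near the top of the signal range, whose highest value over all probe sets was 14.98. Whether signals this bright were compressed was not tested. Among the 15 brightest genes were also Apoa1 at 13.94 ± 0.17, the fetuin Ahsg at 13.9 ± 0.10, the retinol carrier Rbp4 at 13.8 ± 0.07 and the fibrinogen chain Fgg at 13.75 ± 0.08 (mean ± SD, n = 8). The desaturase Scd1, which makes monounsaturated fatty acids, reached 13.96 ± 0.13, and the alcohol dehydrogenase Adh1 13.77 ± 0.07. Car3, a cytosolic carbonic anhydrase, lay at 13.86 ± 0.12. Without replicate 4 the SD of Fgg was 0.0402, and without replicate 5 that of Rbp4 was 0.0428.

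Not all of the brightest rows were messenger RNAs of plasma proteins. Rn7sk, the small nuclear RNA that restrains transcription elongation, ranked 2nd at 14.47 ± 0.10, and the small nucleolar RNA Snord104 ranked 7th at 13.97 ± 0.21, with an SD of 0.0983 without replicate 8. Baiap2l1, an actin-binding adaptor, ranked highest at 14.71 ± 0.05, but by 1 of its 3 probe sets. Its next brightest probe set averaged 11.6, and the probe sets correlated at 0.31 over arrays, so its rank rests on that probe set.

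The hepatocyte markers matched the label of the tissue. All 13 measured hepatocyte markers lay at or above the median of all probe sets, 5.57, with a median level of 13.5, whereas 57.9% of all genes did. All 10 sinusoidal endothelial markers, all 10 stellate cell and fibrosis markers and 11 of 12 Kupffer and macrophage markers did so too, with median levels of 7.74, 6.91 and 7.81. Most lists of lineages foreign to liver and of blood cells had fewer genes above that level than genes at large. Neuronal genes had a median of 5.01 with 1 of 8 above the median of all probe sets, germ cell genes 4.59 with 1 of 8, keratinocyte markers 5.24 with 0 of 6 and neutrophil markers 4.38 with 1 of 8. T and NK cell markers had 3 of 9 above it and B and plasma cell markers 3 of 7. This was not so for the exocrine pancreas genes, with a median of 5.71 and 6 of 9 at or above it, and skeletal muscle genes, with a median of 5.61 and 4 of 7, were close to genes at large. Cholangiocyte markers, although of a liver cell type, had only 2 of 5 at or above the median of all probe sets, with a median of 5.21. Adipocyte markers had 2 of 6, and of 10 erythroid markers listed the 2 measured both lay above it.

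Spread depended only weakly on level. The median SD of genes was 0.173, with a 5th percentile of 0.0913 and a 95th of 0.316. In 10 bins of equal size the median SD was 0.199 in the dimmest bin and 0.161 in the brightest. Probe sets without a gene symbol were more spread, with a median SD of 0.298, than those with 1 symbol, with 0.174. Only 8 genes had an SD above 1 and 116 above 0.5, while 712 genes, 3.57% of all, spanned more than a doubling between their lowest and highest array.

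**Figure D1:**
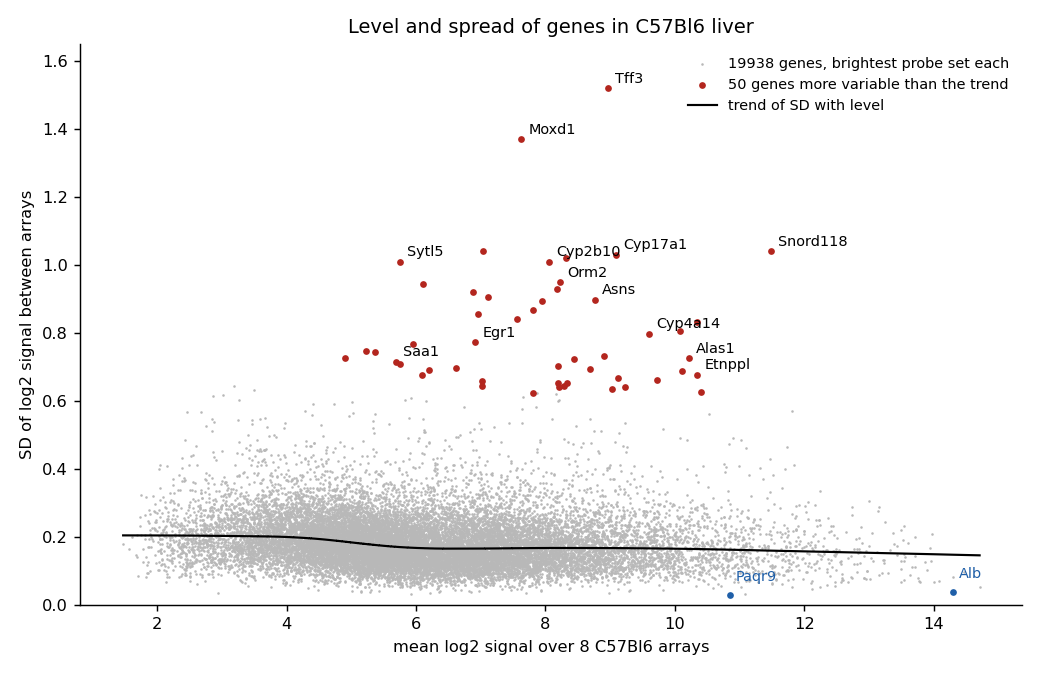
Mean log2 signal (horizontal axis) against the SD of log2 signal between 8 C57Bl6 arrays (vertical axis) for 19938 genes, each by its brightest probe set. The black line is the fitted trend, red points are the 50 genes called above it, and blue points mark Alb (SD 0.0374) and Paqr9 (SD 0.028). Tff3 lies highest at an SD of 1.52.

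Whether a probe set varied more than others of like level was tested by setting its variance against the limma trend of variance with level. Over all 35556 probe sets, 0 (0%) passed at an adjusted p under 0.05. The smallest adjusted p was 0.798, and 2161 (6.08%) had an unadjusted p under 0.05. The prior had only 3.74 degrees of freedom in that fit, which pools named probe sets with the more spread unnamed ones. When each gene entered by its brightest probe set alone, the prior had 10.8 degrees of freedom, and 50 of 19938 genes (0.251%) passed. Every call below comes from that alternative. The list of 50 is itself sensitive: 17 genes were called in all 11 further fits that rescaled the arrays or left out 1 array, and the count was 32 without replicate 1, 29 without replicate 2 and 21 without replicate 5. The 17 were Tff3, Abcd2, Snord118, Cyp17a1, Igfbp1, Sytl5, Nipal1, Asns, Snora33, Moxd1, Orm2, Saa2, Lcn2, Cyp2b10, 9030619P08Rik, Vnn1 and Serpina12.

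Among genes in the highest quartile of level, the smallest SD was that of Paqr9, a progestin and adipoQ receptor family member, which ran only from 10.82 to 10.88. Nipsnap1, a mitochondrial matrix protein, had an SD of 0.032 (0.0201 without replicate 4), Anks4b 0.0347 (0.0184 without replicate 3), the chromatin subunit Gatad2b 0.0358 and Alb 0.0374. Pla2g6, Tbrg1, Gsto1, Cox7a2l and Tomm40 followed with SDs of 0.0406 to 0.0439. The 12 measured common reference genes had a median SD of 0.141, against 0.173 over all genes, and 2 of 12 lay above that median. Their SDs were 0.101 for Ppia, 0.105 for Actb, 0.113 for Pgk1, 0.183 for Rplp0 and 0.3 for the transferrin receptor Tfrc, which fell to 0.199 without replicate 4.

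Average-linkage clustering of the 50 genes on 1 minus the Pearson correlation, cut at 0.5, gave 5 groups and 2 single genes. The cut was chosen with the values in view and the groups are a description. As a background for these correlations, of all pairs of genes, 0.389% had r at or above 0.9 and 2.05% at or above 0.8, with a median of 0.004. The 50 genes were picked for spread and grouped by correlation, so high r within a group follows from the grouping. This background is no test of the groups.

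**Figure D2:**
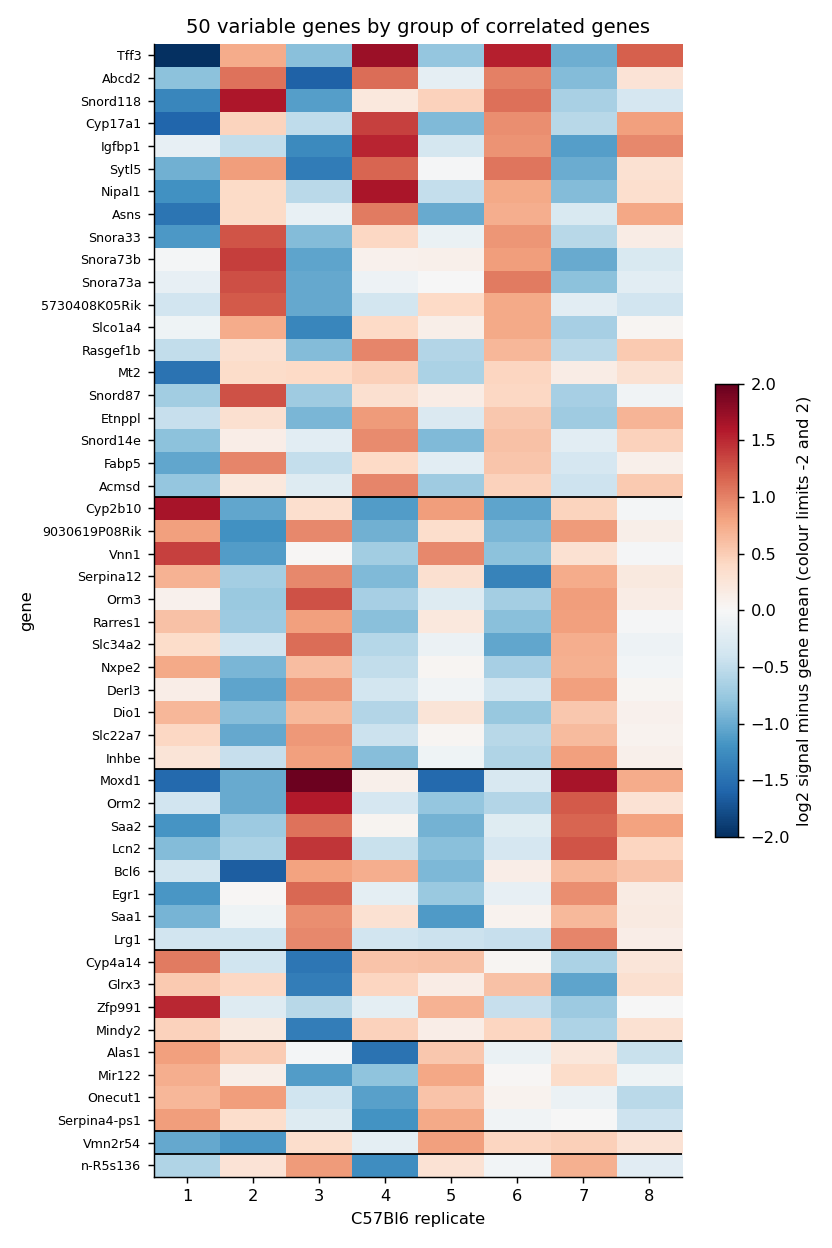
Log2 signal minus the gene's mean for the 50 variable genes (rows) in the 8 C57Bl6 replicates (columns), red above and blue below the mean, with black lines between groups of correlated genes. The topmost group of 20 genes is high in replicates 2, 4 and 6, the next group of 12 is low there, and the third, of 8, is high in replicates 3 and 7.

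The largest group held 20 genes with a median pairwise r of 0.768. Tff3, a trefoil peptide known from mucous epithelia, had the largest spread of all genes, with a lowest value of 6.365 in replicate 1, a median of 8.943 and a highest of 10.67 in replicate 4. That is a 19.8-fold range (SD over trend 9.13, adjusted p = 0.000293 by the limma variance fit on 1 probe set per gene). Replicates 2, 4, 6 and 8 were high and the others low, with a gap between them. Cyp17a1, the steroid 17-alpha-hydroxylase, ran from 7.494 through a median of 9.052 to 10.45, again lowest in replicate 1 and highest in replicate 4. Asns, asparagine synthetase and a known target of the amino acid response, ran from 7.303 through 8.876 to 9.799 in the same replicates. Replicates 1 and 5 were lowest for both enzymes.

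Abcd2 and Igfbp1 stood in the same group. Abcd2, a peroxisomal transporter of very long chain fatty acids, had a lowest value of 5.411, a median of 7.075 and a highest of 8.155. Igfbp1, an IGF-binding protein known to be repressed by insulin, ran from 7.042 through 8.068 to 9.84. Both were lowest in replicate 3 and highest in replicate 4, but Igfbp1 was also low in replicate 2 (7.832), where Abcd2 was high (8.124). The Rab effector Sytl5 ran from 4.35 to 6.924 and the magnesium transporter Nipal1 from 4.896 to 7.731. Etnppl, which breaks down phosphoethanolamine, spanned 3.36-fold, Acmsd of tryptophan breakdown 3.35-fold, the uptake carrier Slco1a4 4.19-fold and the fatty acid carrier Fabp5 4.03-fold. The metallothionein gene Mt2 and Rasgef1b, both highest in replicate 4, and 5730408K05Rik, highest in replicate 2, were also members.

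Small nucleolar RNAs, which guide the processing and modification of other RNAs, made up 6 of these 20 members. Of 51 measured genes of this class, singled out after the calls were seen, these 6 were called (11.8%, against 0.251% of all genes). The class had a median SD of 0.37 at a median level of 7.29, and 50 of 51 lay above the median SD of genes. Snord118, or U8, had a lowest value of 10.17, a median of 11.42 and a highest of 13.1. Its other probe set, with a mean of 11.5, followed it at r = 1.0, but the 2 may share sequence, which would tie their signals. Snora73b ran from 9.292 to 11.73, Snora73a from 9.052 to 11.37 and Snora33 from 6.411 to 8.818. All 4 were highest in replicate 2 and next in replicate 6. Snord87 shared that peak in replicate 2, at 7.479 over a median of 6.24, while Snord14e was highest in replicate 4 at 9.273. Snord104, with an SD of 0.209, was not called. Probe sets of Snora73a and Snora73b may likewise share sequence, so the 6 calls may not be separate observations.

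A second group of 12 genes ran against the largest one, with a median pairwise r of 0.884. Cyp2b10, the classical target of the xenobiotic receptor CAR, had a lowest value of 6.926, a median of 8.201 and a highest of 9.699, a 6.83-fold range (SD over trend 6.06, adjusted p = 0.003 by the same limma fit). Replicates 2, 4 and 6 were the lowest and close together, and replicate 1 the highest. Vnn1, a pantetheinase, ran from 6.695 through 7.805 to 9.173, lowest in replicate 2 and highest in replicate 1. The vaspin gene Serpina12 ran from 5.621 to 7.922 and the uncharacterised 9030619P08Rik from 5.896 to 8.08. Both were highest in replicate 3. Dio1, which activates thyroid hormone, spanned 2.87-fold, the organic anion carrier Slc22a7 3.73-fold, the inhibin chain Inhbe 3.18-fold, the ER degradation factor Derl3 3.84-fold and Rarres1 3.15-fold. The phosphate carrier Slc34a2, Nxpe2 and the alpha-1-acid glycoprotein Orm3 spanned 4.48-fold, 3.18-fold and 4.04-fold, and Orm3 was highest in replicates 3 and 7 at 6.643 and 6.208.

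The third group held Orm2, Saa2, Lcn2 and Saa1 of the acute phase, the hepatic response to inflammatory cytokines. Its largest spread was that of Moxd1, which stands on the male-biased list. Moxd1, a monooxygenase related to dopamine beta-hydroxylase, had a lowest value of 6.065, a median of 7.515 and a highest of 9.594, an 11.5-fold range. Saa2, an acute-phase apolipoprotein, ran from 6.999 through 8.082 to 9.341. Lcn2, which withholds bacterial iron carriers, ran from 6.023 through 6.498 to 8.306. In all 3 genes replicates 3 and 7 were highest and replicate 8 next. Orm2, an alpha-1-acid glycoprotein, had 9.806 in replicate 3 and 9.454 in replicate 7 against 7.226 to 8.508 elsewhere, and Lrg1 11.36 and 11.37 against 9.933 to 10.53. These 2 replicates thus lay clear of the other 6. Saa1, the repressor Bcl6 and the immediate early factor Egr1 completed the group of 8, whose median pairwise r was 0.885.

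Egr1 ran from 5.751 in replicate 1 through 6.845 to 8.067 in replicate 3, a 4.98-fold range. Bcl6, known to oppose STAT signalling, had its lowest value of 6.295 in replicate 2, a median of 8.3 and its highest of 8.754. It was also high in replicate 4, at 8.664, where Saa1 stood at 5.996, above its median of 5.813.

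Another group had 4 genes, low in replicates 3 and 7, where the acute-phase genes were high. Cyp4a14, a fatty acid omega-hydroxylase and classical PPARA target, had a lowest value of 8.153, a median of 9.739 and a highest of 10.63. Glrx3, an iron-sulphur glutaredoxin, had 4.565 and 4.901 in replicates 3 and 7 against 6.1 to 6.532 elsewhere. Mindy2, a deubiquitinase, and Zfp991 depended much on 1 array each. Their SDs fell from 0.659 to 0.38 without replicate 3 and from 0.746 to 0.468 without replicate 1. Mindy2 was next lowest in replicate 7, at 6.409, and Zfp991 next highest in replicate 5, at 5.923. The smallest remaining group joined Alas1, which limits heme synthesis, the liver transcription factor Onecut1, the microRNA gene Mir122 and the pseudogene Serpina4-ps1. Alas1 ran from 8.742 in replicate 4 through 10.31 to 11.04 in replicate 1. Without replicate 4 its SD fell from 0.726 to 0.447. Onecut1 ran from 8.027 to 9.955 and Serpina4-ps1 from 8.534 to 10.56, both lowest in replicate 4 as well, while Mir122 was lowest in replicate 3 at 4.968. The pheromone receptor gene Vmn2r54, dim at a mean of 4.898, and the ribosomal RNA gene n-R5s136 joined no group.

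Named programmes were described by 40 lists with 532 genes measured. The lists were chosen with earlier results of these data known, so shares of called members are a description and no test. The acute-phase list had a median SD of 0.276 over 20 genes, against 0.173 over all genes, and 17 of 20 lay above that median, where 50% of genes do. Of its 20 members, 5 were called, against 0.251% of all genes: Orm2, Saa2, Lcn2, Orm3 and Saa1. Probe sets of the relatives Saa1 and Saa2, or Orm2 and Orm3, may share sequence, so these calls may not be separate observations. The mean deviation of the list from the gene means was 0.481 in replicate 3 and 0.369 in replicate 7, and it was lowest in replicate 5, at -0.352. Its abundant members moved less. Hp, haptoglobin, had an SD of 0.289 at a level of 12.74, Hpx 0.231 at 13.54, Orm1 0.214 at 12.65 and Crp 0.116 at 11.51. Neutrophil markers were dim and had their highest list mean in replicate 5 (4.84), not in replicates 3 or 7. Kupffer and macrophage markers had list means from 7.42 in replicate 5 to 7.93 in replicate 4. The part of these cells in the acute-phase values was not tested.

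The xenobiotic P450 genes were the most spread list, with a median SD of 0.307 over 21 genes and 18 of 21 above the median of genes. Only Cyp2b10 of the 21 was called, against 0.251% of all genes. Cyp2c38 had an SD of 0.599, Cyp2c37 0.485, Cyp1a2 0.4 and the main steroid hydroxylase Cyp3a11 0.305. The list mean was highest in replicates 1 and 5, with deviations of 0.442 and 0.293, and lowest in replicate 2 at -0.274. The targets of the fatty acid receptor PPARA were also highest in replicates 1 and 5 (0.3 and 0.155), and lowest in replicate 3 (-0.196). Of 21 measured targets, Abcd2, Vnn1 and Cyp4a14 were called, each in a different group of the clustering, against 0.251% of all genes. SDs of 14 of the 21 lay above the median of genes, and Cyp4a31, not called, had 0.479. The fatty acid oxidation genes Cpt1a, Slc25a20 and Ehhadh had SDs of 0.125 to 0.15.

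Hepatocyte genes of the pericentral and periportal zones mostly deviated in opposite directions. The 13 pericentral genes had a median pairwise r of 0.616 and the 11 periportal genes 0.576, while 104 of the 143 pairs across the zones were negative, with a median r of -0.406. Glul, glutamine synthetase of the innermost pericentral layer, had a lowest value of 10.19, a median of 10.91 and a highest of 11.18. Cyp1a2 ran from 11.15 through 11.65 to 12.24. Both were lowest in replicates 2, 4 and 6 and high in replicates 1, 3 and 7. In replicate 5 Glul was high too, at 11.04, while Cyp1a2 was near its median, at 11.67. Pck1, the periportal enzyme of gluconeogenesis, ran from 11.02 in replicate 1 through 11.7 to 12.28 in replicate 8, with 12.27 in replicate 4. Tbx3 had the largest pericentral SD, 0.449, and none of the zonal genes was called.

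Markers of sinusoidal endothelium shared the order of the periportal genes in part. Their list mean ran from 7.63 in replicate 5 to 8.04 in replicate 2, and was above its average in replicates 2, 4 and 6 and below it in replicates 3, 5 and 7. The defining genes Stab2 and Clec4g lay at 7.89 ± 0.07 and 9.775 ± 0.20. Proteasome subunits (25 genes, median pairwise r 0.481), which are not on the zonal lists, also shared that order in part. They were highest in replicate 4 (0.158) and lowest in replicates 3 and 7 (-0.172 and -0.128). In replicate 1 they deviated by 0.123, where periportal genes deviated by -0.136. The part of endothelial RNA in the zonal values was not tested, nor was that of the leading component of the arrays described below.

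Genes of sterol and fatty acid synthesis, the targets of the SREBP family, had median SDs slightly above the 0.173 of all genes. The 20 cholesterol synthesis genes had a median SD of 0.193, with 13 of 20 above the median of genes, and a largest SD of 0.289, in Cyp51, and none was called. Hmgcs1, which makes the mevalonate precursor, ran from 10.58 through 10.85 to 11.02. The 22 genes of fatty acid and triglyceride synthesis had a median SD of 0.181, with 13 of 22 above the median of genes. The SD was 0.122 for the synthase Fasn, 0.128 for Acaca, 0.0772 for the elongase Elovl6 and 0.158 for Srebf1, the gene of SREBP-1. Thrsp, a lipogenic cofactor, had the largest, 0.484. No member of this list was called either.

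Sex-biased and growth hormone genes were read against the 0.251% of all genes called, and Abcd2 stands on the PPARA list and Igfbp1 on the gluconeogenesis list as well. Of 19 male-biased genes Moxd1 and Serpina12 were called, and 12 of 19 lay above the median SD of genes. Selenbp2 and Susd4 had SDs of 0.381 and 0.335, while Elovl3, Ugt2b1 and Mup3 had 0.119, 0.0862 and 0.146 at levels over 12. Of 16 female-biased genes Abcd2 and Cyp17a1 were called, and 12 of 16 lay above the median SD of genes. Other members of the list, Cyp2b9, Cyp2b13 and Sult3a1, were dim in these males, at 4.828, 3.602 and 2.167. Of the 16 genes of the growth hormone and IGF list Igfbp1, Bcl6 and Onecut1 were called. Its median SD was 0.269, against 0.173 over all genes, and 14 of 16 lay above the latter. Igf1 itself was steady at 11.51 ± 0.06. Cish, a feedback inhibitor of STAT5, spanned 5.622 to 7.002 with its highest value in replicate 2.

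The clock genes had a median SD of 0.22 and a median pairwise r of 0.0578. Nr1d1 ran from 6.842 to 7.523, Dbp from 6.268 to 6.885 and Arntl from 7.551 to 8.206. Ciart had the largest SD, 0.417, and none was called. Secreted plasma proteins had the smallest median SD of the lists, 0.0795 over 21 genes, and 4 of them lay above the median of genes. Their median level, 13.5, was near the top of the signal range. The immediate early genes did not move as a block: their median pairwise r was 0.0102. Of 16 only Egr1 was called, against 0.251% of all genes.

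**Figure D3:**
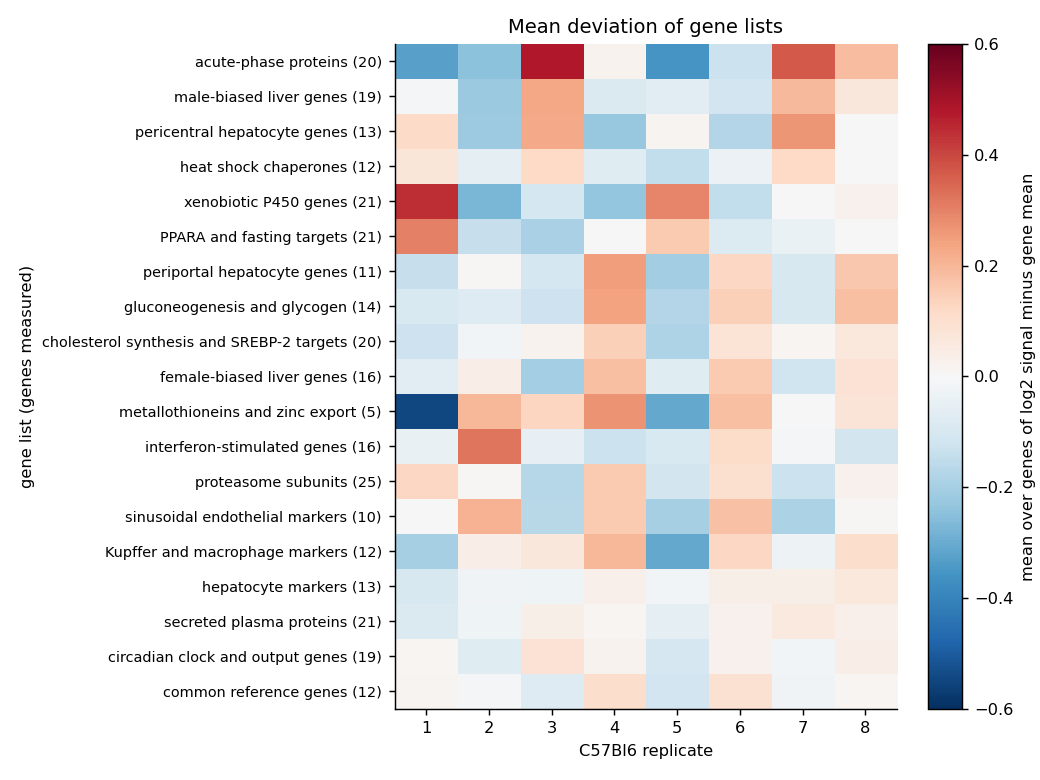
Mean over the genes of a list of log2 signal minus the gene's mean (colour) for 19 gene lists (rows, number of genes measured in brackets) in the 8 C57Bl6 replicates (columns). Acute-phase proteins are highest in replicates 3 and 7, xenobiotic P450 genes in replicates 1 and 5. Pericentral and periportal genes have opposite signs in all 8 replicates. Some of these values are small: 0.00726 for periportal genes in replicate 2, and 0.0177 and -0.00385 for pericentral genes in replicates 5 and 8.

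Of 44 pairs of genes from shared pathways, 36 had both genes measured, and their correlation was tested by exact two-sided permutation over the 40320 pairings of 8 arrays. Of these, 1 passed after Benjamini-Hochberg adjustment over the 36 and 9 had an unadjusted p under 0.05, while 28 were positive. The metallothioneins Mt1 and Mt2, zinc-binding proteins encoded next to each other, were that pair, with r = 0.919 (exact p = 0.000719, adjusted p = 0.0259). The rank correlation was 0.81 (exact p = 0.0218), and r was 0.813 without the 2 arrays farthest from the median of Mt1. Mt1 ran from 7.048 through 8.212 to 8.685 and Mt2 from 7.213 through 9.019 to 9.158. Replicate 1 was lowest and replicate 5 next lowest in both. Without replicate 1, r was 0.783 and the pair no longer passed. Of the other fits on 7 arrays it passed without replicate 2 and without replicate 3 only. Without replicate 1 the SD of Mt2 fell from 0.694 to 0.386. Probe sets of such close relatives may share sequence, which would tie their signals.

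Promoters are shown for the pairs and the gene whose shared movement is described here, with the letters of a known factor site searched on both strands. Genes and motifs were chosen with the correlations known, the metal response letters were narrowed after a looser form had matched many promoters, and the interferon letters were shortened from a longer form. TGCGCNC, the narrowed form of the metal response element, stood in 15.4% of 32851 RefSeq promoters. It stood in both metallothioneins and in all 4 listed metal genes with a promoter. The letters were not particular to metal genes. They also stood in 4 of 5 urea cycle, 4 of 7 cell cycle and 9 of 21 proteasome promoters. In the acute-phase list 0 of 16 promoters held them, and in the bile acid list 0 of 21. Sites of the looser form are not marked. The promoters run 5′ to 3′ across the annotated start in GRCm38.p6, with matches in capitals. Mt1 lies at chr8:94178839-94179138 on the plus strand with its match at position 21 from the start, and Mt2 at chr8:94172368-94172667 on the plus strand with matches at -128 and 5.
Mt1: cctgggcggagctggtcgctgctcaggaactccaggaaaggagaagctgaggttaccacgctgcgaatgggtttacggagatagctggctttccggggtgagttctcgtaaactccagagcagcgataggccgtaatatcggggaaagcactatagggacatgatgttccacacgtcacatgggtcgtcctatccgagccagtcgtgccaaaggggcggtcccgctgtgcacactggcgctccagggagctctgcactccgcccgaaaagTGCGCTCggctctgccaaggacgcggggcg
Mt2: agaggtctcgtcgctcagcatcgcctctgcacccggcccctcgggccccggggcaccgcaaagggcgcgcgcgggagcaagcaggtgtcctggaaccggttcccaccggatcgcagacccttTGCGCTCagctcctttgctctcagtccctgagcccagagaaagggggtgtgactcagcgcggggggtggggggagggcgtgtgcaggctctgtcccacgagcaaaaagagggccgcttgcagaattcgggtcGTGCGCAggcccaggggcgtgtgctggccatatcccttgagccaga

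The interferon-induced genes Ifit1 and Ifit3, which encode sensors of foreign RNA and their partners, had r = 0.903 (exact p = 0.00332, adjusted p = 0.0569) and did not pass. Ifit1 ran from 6.224 through 6.464 to 7.641 and Ifit3 from 6.911 through 7.248 to 8.387. Replicates 2 and 6 were highest in both genes. Without the 2 arrays farthest from the median of Ifit1, r was 0.469, and without replicate 2 the SD of Ifit1 fell from 0.493 to 0.304. The interferon list as a whole deviated by 0.323 in replicate 2, where Rsad2 (7.67) and Usp18 (7.516) were also highest. Its median pairwise r was 0.232. The core of the interferon-stimulated response element, GAAANNGAA, stood in 8.56% of promoters and in 6 of 13 on the list: Gbp3, Ifit1, Ifit3, Irgm1, Oas1a and Rsad2. It is shown as its reverse complement, at -109, -103 and -84 in Ifit1 (chr19:34640639-34640938, plus strand), where the first pair of matches overlap. In Ifit3 (chr19:34583279-34583578, plus strand) it stands at -155, -121 and -102.
Ifit1: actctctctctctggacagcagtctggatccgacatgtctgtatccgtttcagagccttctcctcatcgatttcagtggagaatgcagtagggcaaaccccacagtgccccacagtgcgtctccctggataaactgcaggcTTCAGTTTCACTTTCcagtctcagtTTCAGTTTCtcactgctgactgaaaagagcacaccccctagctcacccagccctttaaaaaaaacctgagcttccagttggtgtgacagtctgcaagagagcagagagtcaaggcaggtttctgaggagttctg
Ifit3: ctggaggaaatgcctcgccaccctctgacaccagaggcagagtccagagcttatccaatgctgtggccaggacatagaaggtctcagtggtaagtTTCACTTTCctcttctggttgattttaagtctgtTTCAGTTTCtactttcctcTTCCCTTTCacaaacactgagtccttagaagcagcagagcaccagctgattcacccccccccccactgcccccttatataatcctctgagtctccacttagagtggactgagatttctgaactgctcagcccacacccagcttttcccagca

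Glul and Cyp1a2 had r = 0.901 (exact p = 0.00481, adjusted p = 0.0569), a rank correlation of 0.929 and r = 0.881 without the 2 farthest arrays. The heat shock chaperones Hsph1 and Hsp90aa1 had r = 0.9 (exact p = 0.00632, adjusted p = 0.0569), with replicates 1, 3 and 7 highest in both. Saa1 and Lcn2 had r = 0.841 (exact p = 0.014, adjusted p = 0.101) and Pck1 and G6pc r = 0.8 (exact p = 0.0199, adjusted p = 0.119). None of these pairs passed. Without replicate 2, r was 0.93 for Glul and Cyp1a2 and 0.966 for Pck1 and G6pc, and both pairs passed. After quantile normalization, the pairs of Glul, Hsph1 and Ifit1 passed beside the metallothioneins.

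**Figure D4:**
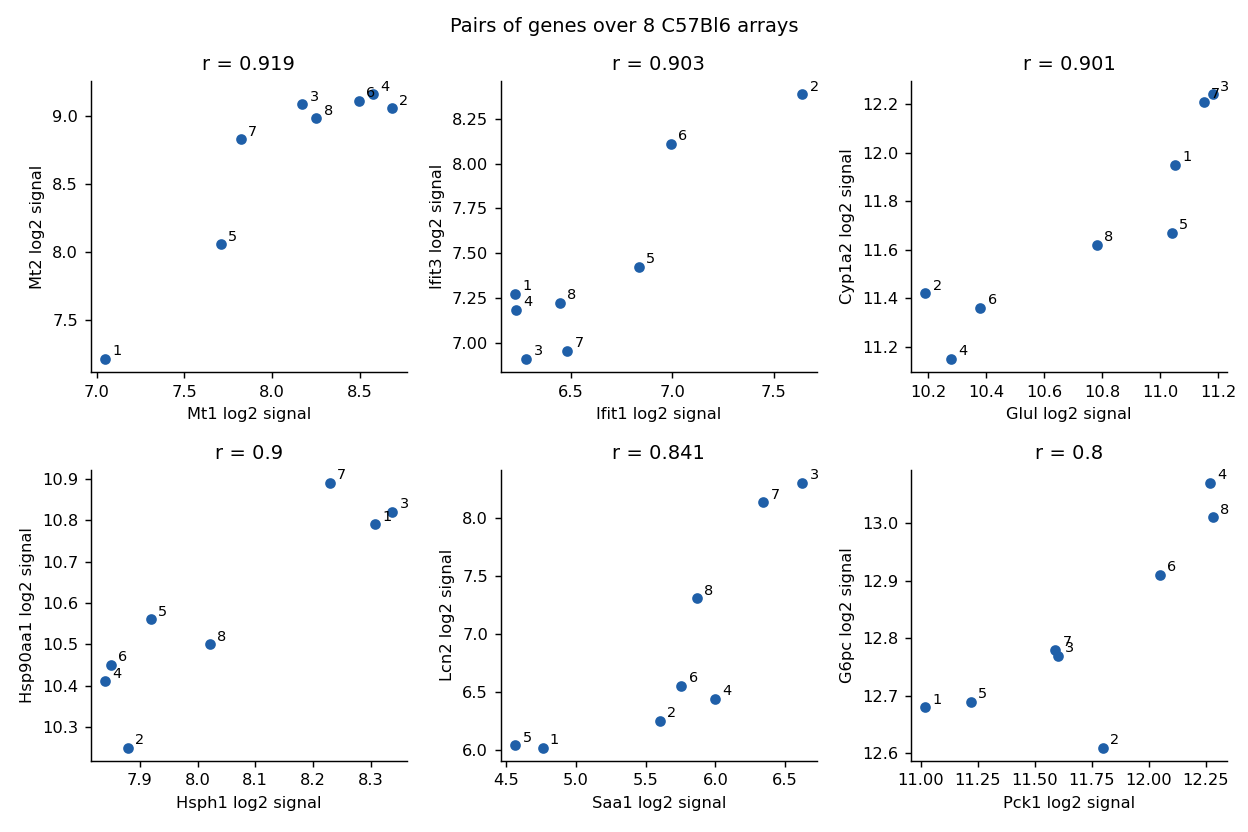
Log2 signals of 6 pairs of genes over the 8 C57Bl6 arrays, each point an array labelled with its replicate number and each panel headed by its Pearson r. Mt1 and Mt2 (r = 0.919) are lowest in replicate 1, Ifit1 and Ifit3 are highest in replicates 2 and 6, and Glul and Cyp1a2 are highest in replicates 3 and 7.

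Several textbook partners did not pass the test. Nr1d1 and Arntl, clock factors of opposite phase, had r = -0.564 (exact p = 0.143, adjusted p = 0.321). Fos and Egr1 had 0.0743 and Cish and Socs2 0.0687. Fos and Jun, partners in AP-1, had a negative r of -0.763 (exact p = 0.0451, adjusted p = 0.18). The male-biased Hsd3b5 and the female-biased Cyp2b9 had a positive r of 0.746 (exact p = 0.0308, adjusted p = 0.158), which was 0.206 without the 2 farthest arrays. The Kupffer cell genes Clec4f and Vsig4 had r = 0.17. Of the 36 pairs, 20 had an r between -0.5 and 0.5.

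Among the 50 called genes, those most like chosen anchor genes were ranked by Pearson r over the 8 arrays, as a description over 50 candidates each. Pck1 was nearest to Asns at 0.984, to Cyp17a1 at 0.967 and to Snord14e at 0.964, and most opposed to Serpina4-ps1 at -0.846. Hmgcs1 was nearest to Sytl5 at 0.949 and Abcd2 at 0.934 and most opposed to Inhbe at -0.966 and Rarres1 at -0.964. Mt1 was most opposed to Vnn1 at -0.966 and Cyp2b10 at -0.962. Saa1 was nearest to Moxd1 at 0.928 and Egr1 at 0.92, and Cyp4a14 most opposed to Egr1 at -0.921. Ifit1 was nearest to 5730408K05Rik at 0.935 and Snord118 at 0.872. No called gene followed Dbp beyond an r of 0.398.

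Asns is the nearest neighbour of Pck1 and its promoter is shown with the amino acid response letters TGATGNAA, which stood in 3.97% of promoters. It lies at chr6:7693160-7693459 on the minus strand, with its match at -23. Of the 10 promoters in its group of 20 genes only this one held the letters, and in the opposed group of 12 genes 1 of 9 did, that of Inhbe.
Asns: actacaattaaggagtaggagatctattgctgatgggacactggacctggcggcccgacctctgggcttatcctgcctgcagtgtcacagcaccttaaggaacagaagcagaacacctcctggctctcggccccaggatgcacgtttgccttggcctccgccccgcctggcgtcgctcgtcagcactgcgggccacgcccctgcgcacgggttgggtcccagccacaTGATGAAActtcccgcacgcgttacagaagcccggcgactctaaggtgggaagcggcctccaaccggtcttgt

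The order of the arrays followed that of the gene groups only in part. Over genes, the leading principal component took 34.9% of the variance and the next 17.8%. Replicates 3 and 7 had the lowest scores on the leading component, -22.0 and -23.0, replicate 5 -12.2, and replicate 4 the highest, 21.0. Replicate 1 scored 9.06, beside replicate 2 at 9.45. In the largest gene group these 2 arrays lay apart, with mean deviations of -0.884 and 0.724. After removal of the gene means, replicates 3 and 7 correlated at 0.388 over genes and replicates 4 and 6 at 0.336, the highest of the 28 pairs of arrays, while replicates 4 and 7 had the lowest, -0.492. Genes are not independent replicates, so no test is attached.

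**Figure D5:**
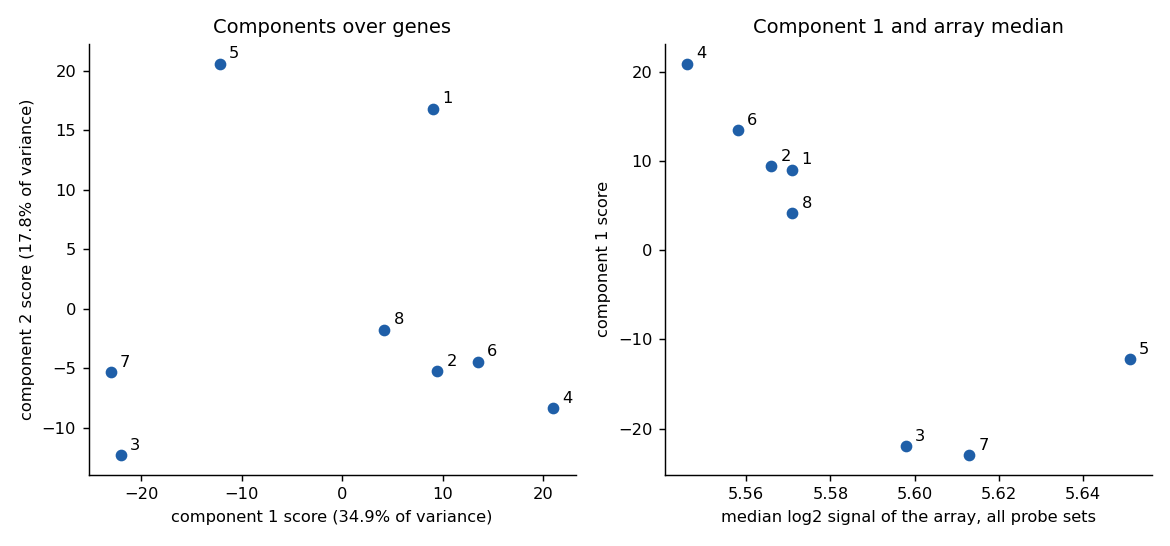
Left, scores of the 8 C57Bl6 arrays on the leading components over genes, each point labelled with its replicate number. Right, score on component 1 against the median log2 signal of the array, where replicate 4 has the lowest median (5.546) and the highest score (21.0).

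The leading component also moved with a technical measure. Its score fell with the array median over the 8 arrays (r = -0.813, exact permutation p = 0.0124, adjusted p = 0.0371 over 3 such correlations). The rank correlation was -0.929 (exact p = 0.00223), and r was -0.973 without the 2 arrays of most distant median. For the leading component over all probe sets, r was -0.723 (exact permutation p = 0.0365, adjusted p = 0.0548), which did not pass. Scores and medians come from the same signals, so they are not independent measures. Centring each array on its median changed the SDs of the 50 genes by factors of 0.969 to 1.04 and left 35 of them called. The part of array quality in the groups of correlated genes was not tested.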

How the data were processed

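Liver RNA of 24 male mice was hybridised at 150 ng to Mouse Gene ST arrays of Affymetrix, and the 8 C57Bl6 arrays were used. The deposited values are log2 signals from RMA, which the authors ran in Expression Console. RMA scales all arrays of a run together and compresses low signals. Per the authors' methods no further filter is named. Probe sets were named by GEO's platform annotation and RefSeq symbols. The gene lists, the pairs, the promoters and the grouping were chosen with earlier results of these data known, and the clustering, motifs and promoters after the correlations had been seen.

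Residual variances of an intercept-only fit were set against the robust trend of variance with level in limma 3.58.1 (R 4.3.3), with the upper tail of the F distribution and Benjamini-Hochberg adjustment at 0.05. Correlations were tested by exact permutation in Python 3.11.15 with numpy 2.4.6 and scipy 1.17.1. Scripts were tested on simulated data. The text names the 15 brightest genes, the 25 of largest and 10 of smallest SD, up to 4 members of each list with the largest SD, pair members and neighbours of anchor genes, and the rule's genes called in the test. As no probe set was called, the 50 genes called with 1 probe set per gene took their place. Other members of a list are named as examples. Alternatives were quantile, median and loess scaling, other priors, filters and probe set rules, rank correlation and leaving out arrays. The number of arrays limits precision. Of 612 list entries 532 were measured; other genes were not analysed here.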

Additional observations from a re-analysis of the deposited data

Results flagged for a closer look

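In 7 of 236 named genes (2.97%) an outermost array lay apart from the other 7 by Dixon's test at its 95% level, which chance alone flags in about 1 of 20 groups. Snord104 had 13.51 in replicate 8 against 13.92 to 14.18 elsewhere. Fgg had 13.93 in replicate 4 against 13.66 to 13.76. Anks4b had 7.623 in replicate 3 against 7.687 to 7.74. The TATA-binding protein gene Tbp had 7.076 in replicate 5 against 7.358 to 7.56. H2-DMa, a chaperone of MHC class II loading, had 6.288 in replicate 3 against 5.429 to 5.71, and Ciita, the activator of class II genes, was also highest there at 5.903. Cd74 was second highest there at 7.597, and H2-Aa, H2-Ab1 and H2-Eb1 were highest elsewhere. The trypsin gene Try5 had 4.944 in replicate 1 against 5.389 to 5.558. The topoisomerase gene Top2a had 5.145 in replicate 4 against 4.472 to 4.77. None of these genes was among the 50 called as more variable than the trend. The causes were not tested.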

How the results depend on the processing

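The count of probe sets above the variance trend was 0 with all probe sets, under every scaling, without each array in turn (0 to 0), and with other priors or without dim probe sets. It was 50 with 1 probe set per gene, 46 with the mean over a gene's probe sets and 46 with probe sets of 1 symbol, the last chosen after seeing the data. Of the first 46 genes, 46 were among the 50, and of the second 39. For the 50 genes, settings added after seeing the data gave 31 after quantile normalization, 35 after median centring, 27 after loess and 21 to 56 without 1 array, the fewest without replicate 5. Of the 36 pairs 1 passed, but 4 after quantile normalization, 4 after loess, 3 with the mean over probe sets, 0 by rank correlation, 0 to 3 without 1 array and 0 without replicates 3 and 7 together, chosen after seeing the data. The cause was not tested. No correlation called under either setting changed sign. SDs of the 50 genes changed by factors of 0.935 to 1.05 under the 3 scalings and 0.67 to 1.05 with the mean over probe sets, the lowest being Mindy2. Leaving out replicates 3 and 7 changed no list's median SD by over 1.5 times. No paired analysis was possible because the arrays form a single group.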
